A study of Mus musculus with 6 samples.

Results

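The genes described here are 10 leukocyte adhesion genes. They are Pecam1, the integrin alpha chains Itgam, Itgal, Itga4, Itga5 and Itgav, the integrin beta chains Itgb1 and Itgb2, and the adhesion molecules Icam1 and Vcam1. They were taken by name as integrins and ligands of leukocyte adhesion, with Pecam1 included because it is the known binding partner of CD177 (NB1), a surface glycoprotein of neutrophils. All 10 were found among the 55335 genes measured, and 8 of the 10 had a mean of at least 1 FPKM and were tested among 11395 genes. FPKM is the number of sequenced fragments per kilobase of transcript, scaled to the depth of the library. The study asked how microglia respond to neutrophils that lack Cd177. Primary microglia of WT genotype were grown from the brains of neonatal C57BL/6 mice and shaken off on day 14. They were cultured for 24 h with neutrophils taken by magnetic sorting from spinal cord injury (SCI) lesions at 3 days post injury (dpi). The neutrophils came from Cd177 WT mice (WT group, 3 libraries) or from Cd177 KO mice (KO group, 3 libraries), and the microglia were then sorted as Ly6G-. Both groups therefore met neutrophils from injured tissue, and no library of microglia cultured alone was analysed here. How many mice stood behind each library was not stated, so the p-values measure the spread between these libraries, which may be technical.

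Integrins are receptors made of 1 alpha and 1 beta chain, which bind matrix proteins or the surface of other cells. Itgb1 pairs with many alpha chains, among them Itga4 (VLA-4, a receptor for VCAM1 and fibronectin) and Itga5 (the fibronectin receptor). Itgb2 is restricted to leukocytes and pairs with Itgam (Mac-1, also complement receptor CR3, used in phagocytosis), Itgal (LFA-1) and Itgax (CD11c). ICAM1 is a ligand of LFA-1 and Mac-1, and PECAM1 is a receptor of the immunoglobulin family on endothelial cells, platelets and leukocytes that binds itself and carries inhibitory signals. In microglia, Itgam and Itgb2 are standard markers, and Mac-1 takes part in the removal of synapses and debris.

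Depth was estimated from the most common low product of FPKM and transcript length, over genes with 1 transcript. It came to about 15600000 to 19200000 fragments per library. The product was searched only within a range set in advance, so these depths, and the fragment numbers based on them, are rough. Libraries of the same group correlated with each other at 0.988 to 0.989 over genes, and libraries of different groups at 0.956 to 0.959, as a description. Cd177 itself lay at 0.113 to 0.477 FPKM in the WT group and at 0.0217 to 0.109 FPKM in the KO group, below the level tested. Of 15 neutrophil markers, 0 reached a mean of 1 FPKM, and Ly6g, Mpo, Elane, Ltf, S100a9 and Retnlg were listed at 0 in all 6 libraries. The summed level of these markers was 2.08 to 2.37 FPKM (WT group) and 1.02 to 1.38 FPKM (KO group). Cd177, which sets the groups apart by design, is part of this sum, so the sum is not independent of the genotype. Prtn3 and Ngp, also part of it, were higher in the KO group. Of 10 endothelial markers, Flt1, Vwf and Egfl7 reached 1 FPKM while Cldn5, Erg, Tie1 and Emcn were listed at 0, and the sum was 13.6 to 14.2 FPKM (WT group) and 13.2 to 14.0 FPKM (KO group). Of 14 microglia and macrophage markers 8 reached 1 FPKM, but Sall1, C1qa and Fcrls were listed at 0, and P2ry12, Tmem119 and Aif1 stayed under 1 FPKM. Their sum was 810 to 827 FPKM (WT group) and 944 to 985 FPKM (KO group). Whether a gene listed at 0 in all libraries was not expressed or was not estimated is not known from a table without counts. The part of these markers in the results below was not tested.

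Among the adhesion genes, the alpha chain Itga5, the leukocyte beta chain Itgb2 and the alpha chain Itgal were lower in microglia cultured with KO neutrophils, and the alpha chain Itga4 was higher. The other 4 tested genes, Itgb1, Itgav, Itgam and Icam1, did not pass the test, and Itgam is a special case because it shares exonic bases with an overlapping gene. Over all 11395 genes tested, 43.3% passed the test, 18.8% lower and 24.5% higher, so calls were common in this comparison and the count of 4 among 8 is near that background. The test was limma on log2(FPKM + 1), KO minus WT, with Benjamini-Hochberg adjustment over all genes tested, and a gene was called at an adjusted p under 0.05. The median log2 difference was -0.13 over the 8 genes and 0.02 over all genes tested. When each library was rescaled to a common sum (TPM scale), 55.0% of the calls over all genes were lower against 43.4% here. In these bulk samples, fewer cells of a type and less RNA per cell cannot be told apart.

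**Figure D1:**
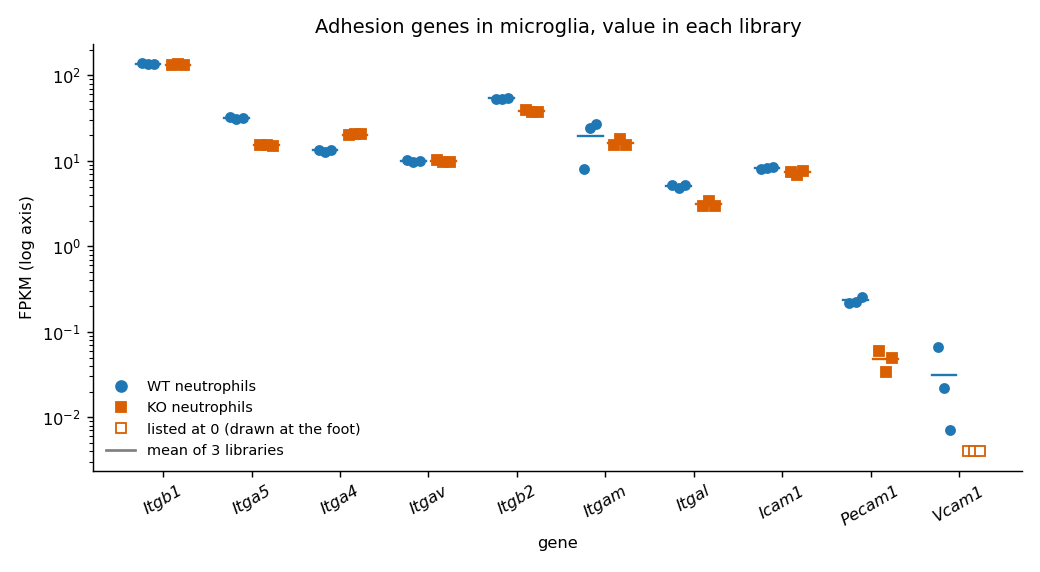
FPKM of the 10 adhesion genes in each library, on a log axis with 1 point per library, the group means as lines and Vcam1 values of 0 drawn open at the foot. Itga5 and Itga4 change places between the groups, Itgb1 stays the most abundant at 131 to 138 FPKM in all 6 libraries, and Itgam is spread over 8.12 to 26.7 FPKM in the WT group.

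Ordered by FPKM, a level per length of transcript, the WT group had Itgb1, Itgb2, Itga5, Itgam, Itga4, Itgav, Icam1, Itgal, Pecam1 and Vcam1. In the KO group the order was Itgb1, Itgb2, Itga4, Itgam, Itga5, Itgav, Icam1, Itgal, Pecam1 and Vcam1, so Itga4 and Itga5 had exchanged places. Only the neighbours Itgam and Itga4 in the WT group and Itgam and Itga5 in the KO group overlapped in their libraries.

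Of the beta1 integrins, the alpha chain Itga5 fell and the alpha chain Itga4 rose, and their shared beta chain Itgb1 did not pass the test. Itga5 (chr15:103344286-103366763, GRCm38, minus strand) was at 32.4, 31.1 and 32.0 FPKM in WT libraries 1 to 3 and at 15.5, 15.2 and 15.0 FPKM in KO libraries 1 to 3. All 3 KO libraries lay far below every WT library. The means were 31.8 ± 0.630 and 15.2 ± 0.255 FPKM (SD, n = 3 each), a 2.09-fold lower level in the KO group (log2 difference -1.02, SE 0.0293, limma adjusted p = 2.26e-06). The absolute change of Itga5 stood at the 97.3 percentile of all genes tested. Itga4 (chr2:79255426-79333123) was at 13.4, 12.8 and 13.5 FPKM in the WT and at 19.9, 20.6 and 20.4 FPKM in the KO libraries, so the groups did not overlap in the opposite direction. Its means were 13.2 ± 0.367 and 20.3 ± 0.360 FPKM, 1.53-fold higher in the KO group (log2 difference 0.58, SE 0.0335, limma adjusted p = 3.87e-05).

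Itgb1 (chr8:128685654-128733200), the chain that carries both, was at 138, 137 and 134 FPKM in the WT and at 131, 135 and 132 FPKM in the KO libraries. The groups overlapped, and the log2 difference was -0.04 (SE 0.0216, 95% interval -0.092 to 0.0126, limma adjusted p = 0.186). It passed the test on the TPM scale, at -0.09 (limma adjusted p = 0.0243), and after quantile normalization, at -0.08 (limma adjusted p = 0.0373). Itgav (chr2:83724397-83806916), whose product pairs with several beta chains to bind vitronectin and osteopontin, was at 10.3, 9.60 and 10.1 FPKM in the WT and at 10.3, 9.59 and 9.74 FPKM in the KO libraries. These groups overlapped as well, and the log2 difference of -0.02 had a 95% interval of -0.124 to 0.0875 (limma adjusted p = 0.763). Exons of Itga4 and Itgav lie opposite those of Cerkl and Gm13684, which reached at most 0.0235 and 0.253 FPKM. Whether the counting used strand was not stated.

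The exchange between the alpha chains can be written as ratios within each library, which do not depend on how a library is scaled. These ratios are formed from the values given above and share genes, so they are not independent of those tests or of each other. The Itga5/Itga4 ratio of FPKM was 2.40 ± 0.0263 in the WT and 0.750 ± 0.0240 in the KO group, 3.21-fold lower. Itga5/Itgb1 went from 0.233 ± 0.0051 to 0.115 ± 0.0031 and Itga4/Itgb1 from 0.0970 ± 0.0032 to 0.153 ± 0.0011, whereas Itgav/Itgb1 was 0.0733 in the WT and 0.0744 in the KO group. The first 3 of these ratios did not overlap between the groups and gave p = 0.1 each in exact two-sided permutation tests, the smallest p that 3 against 3 libraries can give (adjusted p = 0.16 over 8 ratios). Itgav/Itgb1 gave p = 0.9 in the same exact permutation test. A design of 3 against 3 cannot reach 0.05 in this test.

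The 250 bases upstream of the RefSeq start are shown for Itga5 and Itga4, the pair that moved in opposite directions, with capitals marking the PU.1 core GAGGAA on either strand. PU.1 (Spi1) is the main transcription factor of myeloid cells. Itga5 (chr15:103366792-103367041, GRCm38.p6, minus strand) holds 1 match, and Itga4 (chr2:79255176-79255425, plus strand), with a GC content of 64% against 55.6%, holds none.

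Itga5: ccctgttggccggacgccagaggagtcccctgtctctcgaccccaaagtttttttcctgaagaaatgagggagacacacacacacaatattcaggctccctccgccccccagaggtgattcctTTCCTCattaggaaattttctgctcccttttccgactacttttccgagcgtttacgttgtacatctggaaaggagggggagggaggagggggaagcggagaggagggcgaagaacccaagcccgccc

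Itga4: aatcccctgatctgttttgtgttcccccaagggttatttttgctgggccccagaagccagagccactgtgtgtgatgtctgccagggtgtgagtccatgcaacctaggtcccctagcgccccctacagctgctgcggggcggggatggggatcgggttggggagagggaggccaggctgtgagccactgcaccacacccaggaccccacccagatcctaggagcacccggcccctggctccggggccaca

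Over 32817 promoter windows of 300 bases, from 250 before to 50 after the start, 28.3% held the PU.1 core. Of the 6 adhesion genes with a window, Itgam, Itga5, Itgav and Itgb1 held it. The AP-1 motif TGANTCA (7.81% of windows), the kappaB consensus (8.46%) and the ISRE core (3.43%), each searched on both strands, were in 0 of the 6. A match is a description of the letters and not a site, and no match says only that these letters are not in the window.

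Of the beta2 integrins, Itgb2 and Itgal fell in the KO group. Itgb2 (chr10:77530252-77565708) was at 53.3, 53.4 and 54.7 FPKM in the WT and at 39.3, 37.5 and 37.3 FPKM in the KO libraries, with every KO library below every WT library. The means were 53.8 ± 0.762 and 38.1 ± 1.09 FPKM, 1.41-fold lower (log2 difference -0.49, SE 0.0287, limma adjusted p = 4.20e-05). Itgal (chr7:127296260-127335138) was at 5.23, 4.83 and 5.19 FPKM in the WT and at 3.00, 3.37 and 3.00 FPKM in the KO libraries. The 2 groups were again apart, at 5.08 ± 0.223 and 3.12 ± 0.217 FPKM, 1.63-fold lower (log2 difference -0.56, SE 0.0595, limma adjusted p = 0.000565). The decrease of Itgal relative to Itgb2 was small, from a ratio of 0.0945 ± 0.0039 to 0.0821 ± 0.0070 (log2 difference -0.21, p = 0.1, exact permutation test, adjusted p = 0.16), and -0.07 on the log2 scale with a pseudocount of 1. Itgb2/Itgb1, the leukocyte beta chain over the common beta chain, went from 0.394 ± 0.0112 to 0.287 ± 0.0119 with the same p of 0.1 in the exact permutation test. Neutrophils also carry beta2 integrins. The summed level of the 15 neutrophil markers, Cd177 among them, was 1.02 to 1.38 FPKM in the KO group against 2.08 to 2.37 FPKM in the WT group. These markers were low, with none above 0.744 FPKM in any library. Their part in the Itgb2 and Itgal values was not tested.

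Itgam (chr7:128062640-128118491), the gene of CD11b, was at 8.12, 23.9 and 26.7 FPKM in WT libraries 1 to 3 and at 15.4, 18.1 and 15.2 FPKM in KO libraries 1 to 3. WT library 1 lay below all other libraries and WT libraries 2 and 3 above all KO libraries, so the groups overlapped (19.59 ± 10.02 and 16.2 ± 1.63 FPKM). The log2 difference of -0.10 had a 95% interval of -1.10 to 0.892 (limma adjusted p = 0.857). It was -0.61 without WT library 1 (limma adjusted p = 0.0054), 0.11 without WT library 2 and 0.19 without WT library 3, so single libraries decided its direction.

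The locus holds a second annotated gene, Gm49368 (chr7:128062683-128128160), on the same strand. Of the 4803 exonic bases of its longer transcript, 3450 (71.8%) are also exonic in Itgam, and of the 477 of its shorter transcript 68 (14.3%), so fragments from this stretch could be given to either gene. Gm49368 was at 49.6, 35.2 and 28.3 FPKM in the WT libraries, highest in the library where Itgam was lowest, and at 19.3, 17.4 and 19.6 FPKM in the KO libraries. Itgam held 14.1%, 40.5% and 48.5% of the sum of both in the WT and 44.4%, 51.0% and 43.7% in the KO libraries. The share thus varied mainly within the WT group, where library 1 stood apart.

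The sum of both, chosen after the data were seen, was at 57.7, 59.1 and 55.0 FPKM in the WT and at 34.7, 35.5 and 34.7 FPKM in the KO libraries. Its spread was small, with a coefficient of variation of 3.67% and 1.27%, and the groups did not overlap. The means were 57.3 ± 2.104 and 34.96 ± 0.442 FPKM, 1.64-fold lower in the KO group (log2 difference -0.70, SE 0.0324, 95% interval -0.774 to -0.617, limma adjusted p = 1.52e-05). Leaving out each library in turn gave -0.72 to -0.67. A sum of FPKM values over transcripts of different length is a level for the locus and not for either gene, and the values do not show which gene the fragments came from.

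**Figure D2:**
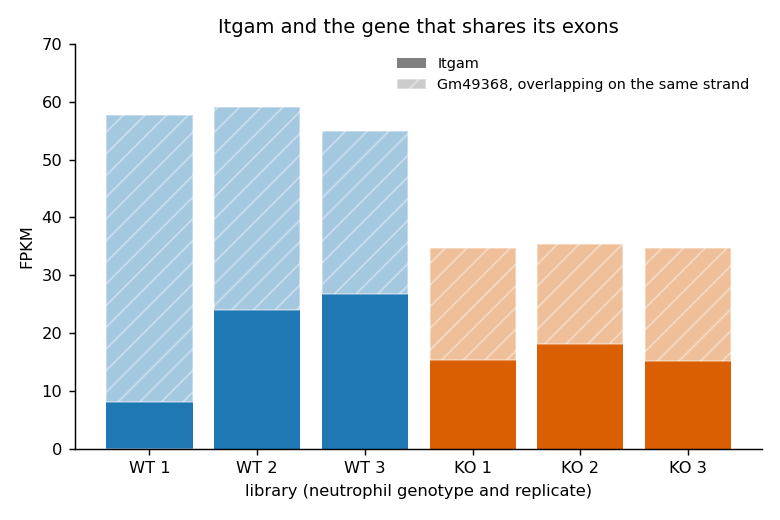
FPKM of Itgam, of Gm49368 and of their sum in each of the 6 libraries, as bars from 0. The division between the 2 genes differs most in WT library 1, where Itgam has 14.1% of the sum, while the summed level is 55.0 to 59.1 FPKM in the WT group against 34.7 to 35.5 FPKM in the KO libraries.

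The upstream bases of Itgam (chr7:128062390-128062639, plus strand) are shown because PU.1 binding upstream of this gene is textbook knowledge of myeloid expression. The PU.1 core, in capitals, stands at 84 and 15 bases before the start, on the plus and the minus strand.

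Itgam: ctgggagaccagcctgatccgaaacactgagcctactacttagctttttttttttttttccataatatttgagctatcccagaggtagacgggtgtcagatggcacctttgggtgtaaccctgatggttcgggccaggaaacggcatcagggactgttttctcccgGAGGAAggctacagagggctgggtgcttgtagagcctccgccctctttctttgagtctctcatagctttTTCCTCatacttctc

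Among the alpha chains that pair with Itgb2, Itgax moved the other way. Itgax (CD11c), which is no member of the 10 genes, was at 4.51, 4.18 and 4.19 FPKM in the WT and at 9.59, 9.53 and 9.29 FPKM in the KO libraries. It rose by 0.98 on the log2 scale (SE 0.0439, limma adjusted p = 1.25e-05), while Itgal and the Itgam locus fell. With Itgam and Gm49368 summed, the pooled level of the beta2 alpha chains was 66.7 ± 1.99 FPKM in the WT group against 47.6 ± 0.716 FPKM in the KO group. The Itgam locus made up 85.9 ± 0.767% and 73.5 ± 0.286% of this pool, Itgax 6.44 ± 0.280% and 19.9 ± 0.337%, and Itgal 7.64 ± 0.499% and 6.56 ± 0.355%. Each of these shares was apart between the groups, at p = 0.1 in exact two-sided permutation tests. Shares of 1 pool are tied to each other, so these are not independent tests. The pool counts all of Gm49368 with Itgam, a choice made after the data were seen. With Itgam alone, the pool was 29.0 ± 9.74 and 28.9 ± 1.91 FPKM, and Itgax made up 25.2%, 12.7% and 11.6% of it in the WT and 34.3%, 30.7% and 33.8% in the KO libraries, apart between the groups (p = 0.1, exact permutation test). Itgam then made up 64.0 ± 16.1% and 56.2 ± 1.87%, which overlapped (p = 0.4, exact permutation test), and Itgal 19.4 ± 8.52% and 10.8 ± 0.103% (p = 0.1, exact permutation test). Itgam/Itgb2 was 0.363 ± 0.184 and 0.427 ± 0.0485 with Itgam alone (p = 0.9, exact permutation test) and 1.065 ± 0.053 and 0.919 ± 0.0331 with the sum (p = 0.1, exact permutation test). With Itgam alone, Itgal/Itgam was 0.347 ± 0.258 and 0.193 ± 0.00576 (p = 0.3, exact permutation test), a log2 difference of -0.61 that was -0.04 without WT library 1. With the sum it was 0.0889 in the WT and 0.0893 in the KO group (p = 0.9, exact permutation test).

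**Figure D3:**
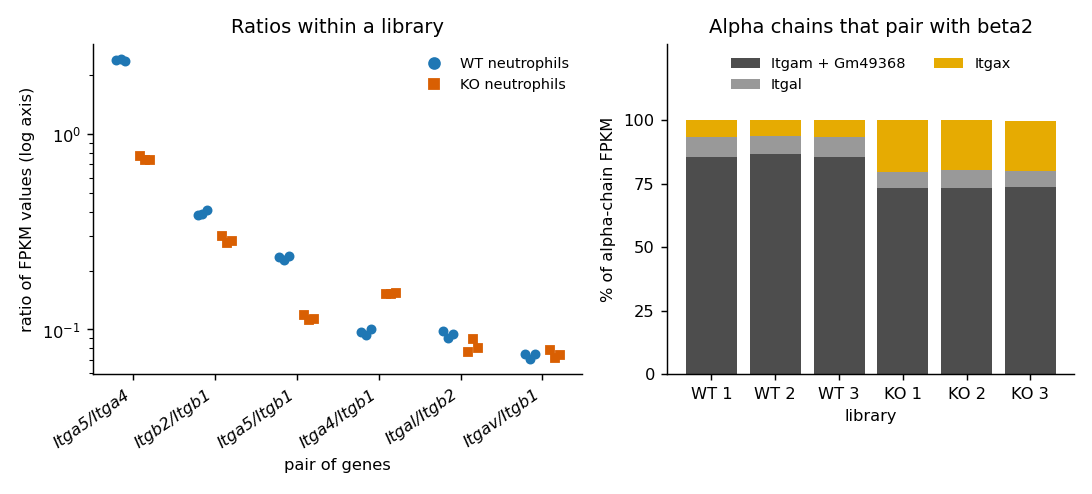
Left, ratios of FPKM values within each library for 6 pairs of genes, 1 point per library, on a log axis; right, the share of Itgam with Gm49368, of Itgal and of Itgax in the FPKM of the alpha chains that pair with Itgb2, per library (Itgad, too low to be seen, is not drawn). Itga5/Itga4 falls from a mean of 2.40 to 0.750, Itgav/Itgb1 overlaps, and Itgax takes 6.44% of the summed pool in the WT and 19.9% in the KO group.

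Icam1 (chr9:21015985-21028817), the ligand of both beta2 integrins above and a gene induced by inflammatory signals in many cells, was at 8.03, 8.24 and 8.46 FPKM in the WT and at 7.45, 6.88 and 7.71 FPKM in the KO libraries. Every KO library was below every WT library, by little. The means were 8.25 ± 0.215 and 7.35 ± 0.423 FPKM (log2 difference -0.15, SE 0.0502, 95% interval -0.27 to -0.0276), and the limma adjusted p of 0.0536 missed the threshold. It passed on the TPM scale at -0.21 (limma adjusted p = 0.0195), with a minimum mean of 5 FPKM (limma adjusted p = 0.0483) and without KO library 3 (limma adjusted p = 0.049). Icam1, Itgb2, Itgal, Itga4 and Itga5 were the 5 of 8 tested genes whose groups did not overlap, a pattern that 55.8% of all genes tested had.

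The bases upstream of Icam1 (chr9:21015690-21015939, plus strand) are shown with capitals for a motif that was added after the windows had been read. GGAAATTCC, a form of the kappaB site bound by NF-kappaB, starts 153 bases before the RefSeq start and is in 0.317% of all windows.

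Icam1: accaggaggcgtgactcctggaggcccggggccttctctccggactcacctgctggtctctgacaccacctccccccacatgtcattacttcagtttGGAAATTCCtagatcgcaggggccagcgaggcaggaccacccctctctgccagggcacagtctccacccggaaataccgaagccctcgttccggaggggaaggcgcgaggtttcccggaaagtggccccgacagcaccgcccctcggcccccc

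Pecam1 (chr11:106654217-106750628, minus strand) was near the limit of detection in both groups. It was at 0.219, 0.222 and 0.258 FPKM in the WT and at 0.0588, 0.0338 and 0.0499 FPKM in the KO libraries. Every KO library was below every WT library (0.233 ± 0.0220 and 0.0475 ± 0.0127 FPKM, p = 0.1 in an exact permutation test). It has 8 annotated transcripts, and those that code for protein are 1020 to 3441 bases long. At the longest, the KO values correspond to an estimated 2.19 to 3.30 fragments per library and the WT values to 11.9 to 14.2, and 3 fragments are worth at most 0.0560 FPKM. At the shortest, 3 fragments are worth up to 0.189 FPKM, above every KO value and not far under the WT values, so no fold is given. On log2(FPKM + 1) without a filter on low values, the difference was -0.24 (limma adjusted p = 0.00191), a scale that understates the change of low genes. The neutrophil marker sum, which includes Cd177 itself, moved in the same direction, at 2.08 to 2.37 FPKM (WT group) and 1.02 to 1.38 FPKM (KO group). Of the 10 endothelial markers, Flt1 was lower in the KO group (9.82 and 7.69 FPKM, limma adjusted p = 0.00161), Vwf was higher (2.76 and 4.23 FPKM, limma adjusted p = 0.00137), Egfl7 was at 1.26 and 1.61 FPKM (limma adjusted p = 0.114), and Cldn5, Erg, Tie1 and Emcn were listed at 0. Their part in the Pecam1 values was not tested.

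Vcam1 (chr3:116109949-116129688, minus strand), the ligand of VLA-4, was at 0.066, 0.0217 and 0.00706 FPKM in the WT libraries and listed at 0 in the 3 KO libraries. At the depth estimated above, 3 fragments would be worth 0.0511 FPKM in WT library 1, the only library with a value above that level. Since the table holds no counts, a listed 0 was not read as a count, and Vcam1 was too low for a comparison. The Icam1/Vcam1 ratio could not be formed. Exons of Icam1 and Vcam1 lie opposite those of Gm47079, at most 0.156 FPKM, and Gm43109, at 0.

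Of the 27 integrin subunit genes of the mouse that were listed, 13 were tested, of which 3 were called higher, 6 lower (Itgb3 among them) and 4 did not pass, beside 24.5% higher and 18.8% lower over all genes tested. These 13 include 7 of the 10 genes above. Beyond the 10 genes above, Itgax and Itgb5 rose, Itga7 and Itgb7 fell, and Itgb3 was called lower in a test that depended on the filter. Itgb5, a partner of Itgav, was at 15.8 and 19.2 FPKM in the WT and KO groups (log2 difference 0.27, limma adjusted p = 0.0054). Itgb3, another partner of Itgav, was at 1.34 and 0.862 FPKM (-0.33, limma adjusted p = 0.0267). It reached the minimum mean of 1 FPKM only through the WT group, so this call is not independent of the filter, and it missed the threshold without a filter on low values (limma adjusted p = 0.0687), with the replicate block (limma adjusted p = 0.0669) and without WT library 1 or 3 or KO library 1 or 3 (limma adjusted p = 0.0656 to 0.0790). The size for this low gene depended on the pseudocount, at -0.59 with 0.1 in place of 1 and -0.54 on the TPM scale. Itgb7, the second partner of Itga4, was at 60.5 and 54.1 FPKM (-0.16, limma adjusted p = 0.00752). Itga7, a laminin receptor chain, was at 3.23 and 2.38 FPKM (-0.33, limma adjusted p = 0.00563), and Itga6, another laminin receptor chain, at 4.80 and 4.94 FPKM (0.03, limma adjusted p = 0.63).

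**Figure D4:**
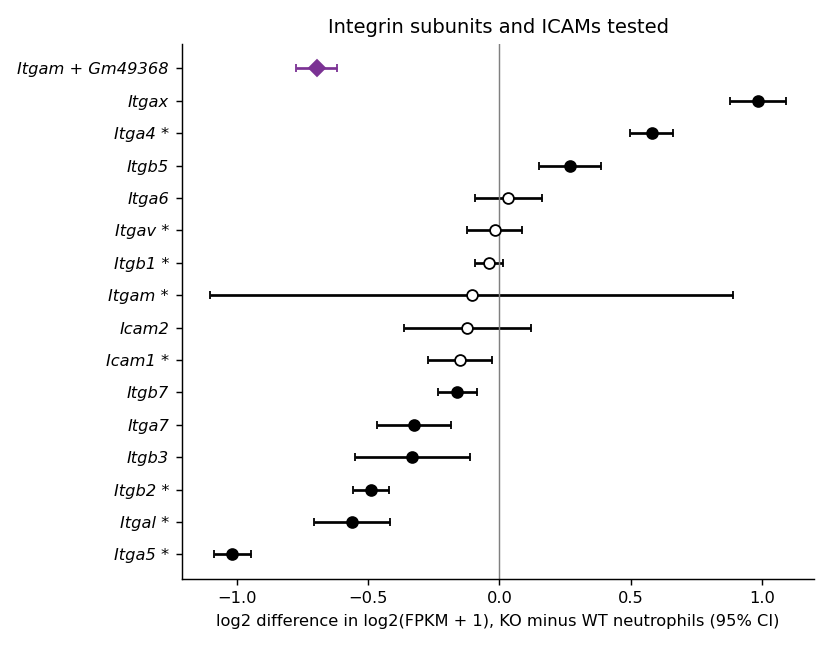
Difference of log2(FPKM + 1), KO minus WT, of every integrin subunit tested and of Icam1 and Icam2, with 95% intervals as bars. Filled points passed the test, open points did not, asterisks mark members of the 10 adhesion genes and the diamond is the sum of Itgam and Gm49368, at -0.70, and Itga5 at -1.02 and Itgax at 0.98 lie farthest out on either side.

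Ligands and relatives on the cell surface were mostly too low to test. Of 17 such genes, Icam1, Pecam1 and Vcam1 included, 6 were tested, Icam1 among them. Of these 0 rose and 2 fell, beside 24.5% higher and 18.8% lower over all genes tested, and the list median was -0.18. Cd47, the integrin-associated protein that binds SIRP alpha, was at 15.7, 21.5 and 22.0 FPKM in the WT and at 8.25, 7.52 and 7.28 FPKM in the KO libraries (log2 difference -1.24, limma adjusted p = 0.00049). Alcam fell by 0.22 on the log2 scale (limma adjusted p = 0.0142). Cd44, the hyaluronan receptor, was at 64.7 and 48.9 FPKM and did not pass (-0.42, limma adjusted p = 0.054), with KO library 3 low at 37.7 FPKM. Without that library it passed at -0.24 (limma adjusted p = 0.00328), as it did on the TPM scale (limma adjusted p = 0.0401) and with a minimum mean of 5 FPKM (limma adjusted p = 0.0473). Of the selectins and their ligand, only Selplg was tested, at 7.27 and 5.84 FPKM (-0.28, limma adjusted p = 0.367). Its difference was -0.11 without WT library 1, -0.44 without WT library 3 and -0.07 without KO library 3.

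Of 21 matrix ligands 5 were tested, and 10 were listed at 0 in all libraries, among them fibronectin (Fn1) and vitronectin (Vtn), the ligands of Itga5 and Itgav; whether they were not expressed or not estimated is not known. The laminin chain Lamc1 was at 39.7 and 20.2 FPKM in the WT and KO groups (log2 difference -0.94, limma adjusted p = 3.07e-06). Spp1, osteopontin, a ligand of Itgav and Itga4 integrins, was at 2688 and 2099 FPKM (-0.36, limma adjusted p = 2.34e-05), with exons that overlap Gm42793 on the same strand. Thbs1 fell by 0.28 on the log2 scale (limma adjusted p = 0.0117), and Emilin1, a matrix glycoprotein, rose from 1.93 to 3.30 FPKM (0.55, limma adjusted p = 0.0011).

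Of 26 genes for proteins that switch integrins on or link them to actin, 18 were tested. Of these 9 rose and 3 fell, beside 24.5% higher and 18.8% lower over all genes tested, and the list median was 0.13. Within this list Rap1b, a GTPase that activates integrins, went from 92.2 to 62.8 FPKM (log2 difference -0.55, limma adjusted p = 2.07e-05), and its exchange factor Rapgef1 from 44.0 to 33.6 FPKM (-0.38, limma adjusted p = 5.44e-05). Rasa3, which turns Rap1 off, went from 10.4 to 17.3 FPKM (0.68, limma adjusted p = 3.62e-05), and talin (Tln1), which binds beta chain tails, from 20.8 to 26.6 FPKM (0.34, limma adjusted p = 0.000473). These are the 4 genes of the list with the smallest p. Rap1a, the close relative of Rap1b, was at 36.6 and 36.3 FPKM (limma adjusted p = 0.84), and the Rap1 effector Apbb1ip rose from 9.43 to 10.9 FPKM (0.19, limma adjusted p = 0.0069); both were named after their values were seen.

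Of 18 signalling enzymes 17 were tested, 5 rose and 10 fell, with a median of -0.19. Over all genes tested, 24.5% were called higher and 18.8% lower. Rac2, a small GTPase of blood cells, went from 105 to 51.9 FPKM (log2 difference -1.01, limma adjusted p = 1.11e-06) and Vav1, its exchange factor, from 65.8 to 34.7 FPKM (-0.91, limma adjusted p = 1.07e-05). The kinases Syk, from 21.3 to 14.1 FPKM (-0.57, limma adjusted p = 8.05e-05), and Lyn, from 25.8 to 18.1 FPKM (-0.49, limma adjusted p = 0.000162), which act downstream of beta2 integrins, also fell. Over all lists without the 10 genes, 52 of 103 genes were tested, 17 rose and 21 fell (73.1% called, beside 43.3% of all genes tested), with a median of -0.15.

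**Figure D5:**
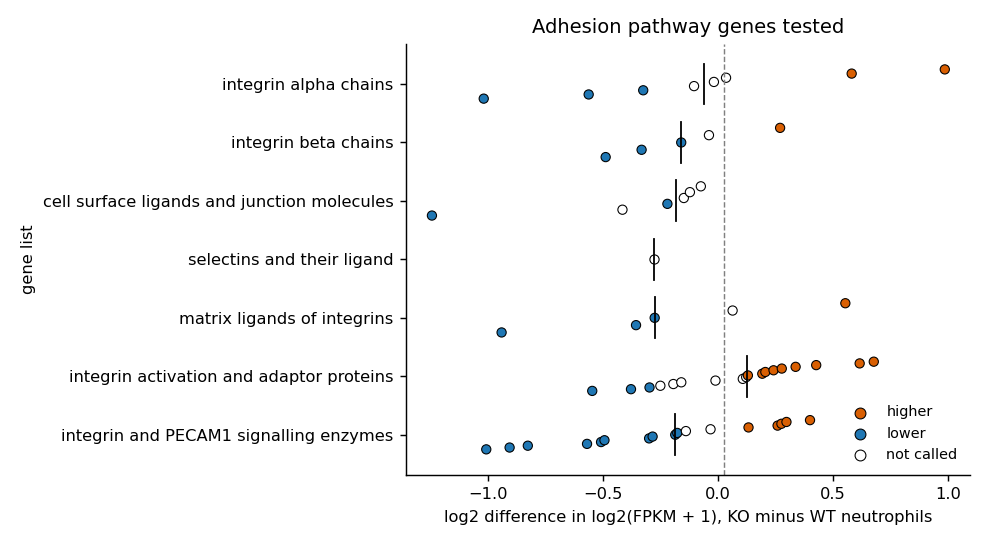
Log2 difference, KO minus WT, of the tested genes of each adhesion list, 1 point per gene (orange higher, blue lower, white not called) with the list median as a line, and the median of all genes tested, 0.02, as a dashed line. Activation and adaptor genes have a median of 0.13 and signalling enzymes of -0.19.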

How the data were processed

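RNA-seq libraries of sorted microglia were compared, 3 per group. The authors deposited 1 table of FPKM values per gene and library, and per the labels fastp 0.17.1, HISAT2 2.1.0, DESeq2 1.18.1 and R 3.4.3 were used. The genome build, annotation and FPKM tool were not given in the sources used here, and no fragment counts were used. FPKM depends on transcript length and on the other genes of a library. Low values fell on whole fragments in 27.7% to 29.8% of cases (within 0.05), so fragments were not recovered and no count test was run. Ensembl identifiers were paired with symbols for 55154 of 55335 genes, and coordinates were taken from GENCODE M21 (GRCm38).

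Genes whose mean reached 1 FPKM were fitted with limma 3.58.1 in R 4.3.3 on log2(FPKM + 1) with a variance trend. Ratios were tested with the exact permutation test of scipy 1.17.1. The script was tested on simulated data. The genes and lists were chosen with earlier results of these data known. Named genes were the 10 adhesion genes, Cd177, the up to 4 genes of each list with the smallest p and, for 4 genes, the 3 closest in pattern. Gm49368, Fn1, Vtn, Spi1 and the overlapping genes were named after their values were seen. Promoters came from RefSeq windows (GRCm38.p6), which matched 6 of the 10 genes. A further motif searched in them is not reported here. The planned protein comparison was not run. Replicate numbers did not pair the libraries (correlations -0.0751, -0.0524 and -0.00518).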

Additional observations from a re-analysis of the deposited data

How the results depend on the processing

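The settings tried were another pseudocount (0.1), a minimum mean of 5 FPKM or none, quantile normalization, median centring, the TPM scale, a fit without the variance trend, the replicate block, each library left out and, for ratios, a pseudocount of 1. They gave 3763 to 4931 calls over all genes tested, against 4930, and 4082 to 4223 with each library left out. The genes tested numbered 7383 with a minimum mean of 5 FPKM (3763 called) and 25195 with no filter (4504 called), against 11395. The share of all genes that was called therefore depends on the filter. Adhesion genes called numbered 4 to 6 and genes of the adhesion lists 35 to 45, against 4 and 42. With the replicate number as a block, 4212 genes, 4 adhesion genes and 40 list genes were called. With Itgam and Gm49368 summed, an alternative added after seeing the data, 4932 genes were called. Of 459 values for 31 named genes, 438 kept direction and side of the threshold, 10 passed it newly, 6 missed it and 5 reversed.

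Itga6 was -0.00752 on the TPM scale. With each library left out, Itga6 ranged from -0.00257 to 0.0646, Itgav from -0.0446 to 0.00413 and Itgam from -0.61 to 0.19. Leaving out each library moved the log2 ratio Itgam/Itgb2 from -0.14 to 0.70, Itgal/Itgam from -0.90 to -0.04 and Itgav/Itgb1 from -0.0181 to 0.0526. With a pseudocount of 1, Itgal/Itgb2 was -0.07. With the sum, Itgam/Itgb2 was -0.21 and Itgal/Itgam 0.00672. The cause was not tested in these cases, except that the sum changes the Itgam term itself. The ratio Icam1/Vcam1 could not be formed. Depth limits Pecam1 and Vcam1, since 3 fragments are worth 0.0453 to 0.0548 FPKM for Pecam1 in the KO libraries at its longest transcript.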

Other observations

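By the rule of smallest distance between centred log2(FPKM + 1) values over the 6 libraries, with 7383 genes of at least 5 FPKM searched, the genes closest to Itgb2 were Sertad2 (14.3 and 9.85 FPKM in the WT and KO groups), M6pr (47.5 and 33.2 FPKM) and Ubald2 (68.2 and 48.0 FPKM), at distances of 0.0122, 0.0160 and 0.0162. Those closest to Icam1 were Rrp7a, Iah1 and Fam219a, at 0.0114, 0.0157 and 0.0185. For Pecam1 they were Yaf2, Dnajc2 and Arnt, at 0.0113, 0.0125 and 0.0126, and for Vcam1 they were Ppib, Capza1 and Ddx54, at 0.0119, 0.0139 and 0.0141. Pecam1 and Vcam1 vary little on this scale.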
